A study of Mus musculus with 3 samples.

Results

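Interferon-stimulated genes were followed through tumour-infiltrating T cells as a fixed list of 50 symbols, all of which were found among the 31053 genes of the deposited table and each of which had at least 1 UMI (a unique molecule tag, the unit counted here). The members were listed by name, and the list was drawn up with earlier results of these data known. They fall into 10 groups by role: ISG15 conjugation, IFIT proteins, oligoadenylate synthetases, other antiviral effectors, nucleic acid sensors, the transcription factor ISGF3 with Irf7, interferon-inducible GTPases, Schlafen genes, the PARP9 complex with Parp14, and 4 others. The cells came from C57BL/6 mice with subcutaneous B16-Ova melanoma or MC38-Ova colon carcinoma, both of which express ovalbumin. Tumours were taken on day 14 and T cells were sorted as TCRB+ CD3+ CD90.2+ CD11b-. Cells of each tumour carried their own hashtag oligonucleotide, and both were pooled into a single droplet capture in which RNA was read together with antibody tags for PD-1, Tim-3 and the biotinylated lectin L-Pha (SUGAR-seq). There is thus 1 pool of cells per tumour, the number of mice behind a hashtag is not given, and no untreated or interferon-treated group was part of the design.

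Type I interferons bind the receptor formed by Ifnar1 and Ifnar2 and signal through Jak1 and Tyk2 to ISGF3, a complex that includes Stat2 and Irf9 and binds the interferon-stimulated response element (ISRE). Interferon gamma, made by T cells and natural killer cells themselves, binds Ifngr1 and Ifngr2 and signals through Jak1 and Jak2 to the gamma-activated sequence (GAS) in its target genes. Many genes respond to both, but the guanylate-binding proteins and immunity-related GTPases are best known as targets of interferon gamma, and the IFIT, OAS and ISG15 genes as targets of type I interferon.

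Classes of cells were set by raw UMIs of a few genes that are no members of the list. CD8 cells had at least 2 UMIs of Cd8a and Cd8b1 together and none of Cd4 or Foxp3. Treg cells had Foxp3, CD4 cells had Cd4 without Foxp3, and innate-like cells had Cd3e with at least 2 UMIs of Fcer1g and Tyrobp and little or no coreceptor RNA. In B16-Ova these were 1792 CD8, 777 Treg, 753 CD4 and 455 innate-like cells, and in MC38-Ova 2544, 960, 736 and 780 cells. They make up 8797 of 14992 cells with 1 hashtag. The UMIs of each class and pool were summed, giving 8 sums of 2592067 to 20937848 RNA UMIs with a median of 4107 to 7358 RNA UMIs per cell. Some markers that the rules did not use followed the names. Ctla4 stood at 1813 and 1471 CPM, the count scaled to a fixed total of RNA UMIs, in Treg cells of B16-Ova and MC38-Ova and at 100.3 to 697 CPM elsewhere. Klra7, a Ly49 receptor, stood at 336 and 506 CPM in innate-like cells against 25.9 to 91.1 CPM elsewhere. Cd40lg stood at 235 and 174 CPM in CD4 cells and at 13.8 to 57.8 CPM elsewhere. Others followed them less. Trac stood at 216 and 231 CPM in CD8 but at 320 and 278 in Treg cells. Ikzf2, a Treg marker, stood at 569 and 512 CPM in Treg and 432 and 358 in innate-like cells. CD4 cells held the Treg marker Tnfrsf4 at 428 and 702 CPM, against 1577 and 1516 in Treg cells. RNA of other cell types was present. The summed melanoma markers (5 of 5 genes detected) stood at 243 and 30.1 CPM in CD8 cells of B16-Ova and MC38-Ova, 33.9 and 186 in Treg, 329 and 34.3 in CD4, and 452 and 36.4 in innate-like cells. The 7 macrophage and 5 stromal markers are given by pool beside the tumour ratios. The keratins Krt8 and Krt19 and the B cell gene Ms4a1 were at 0 in all 8 sums. Cells carrying both hashtags were removed, but doublets within a pool remain.

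The ISRE, read here as GAAA, any 2 bases and GAAA again, was searched on both strands of RefSeq promoter windows (GRCm38.p6) that run from 250 bases before to 50 bases after the annotated start. Windows were found for 39 of the 50 members. The motif lay in 23 of these (58.97%), against 3.99% of the 27025 genes with a window. The GAS, written as TTCNNNGAA, lay in 8 of 39 (20.5%), against 9.55% of all genes. The stretches below show the members on which the results turn, with matches to the ISRE and to its reverse complement (TTTC, any 2 bases, TTTC) in capitals. Isg15, Ifit1, Ifit3, Ifit3b and Rsad2 are shown as genes best known for the type I response, and Igtp, Gbp2 and Gbp7 as GTPases. Isg15 lies on chr4:156200860-156200911 (minus strand), Ifit1 on chr19:34640770-34640828 (plus), Ifit3 on chr19:34583358-34583431 (plus), Ifit3b on chr19:34607754-34607827 (plus), Rsad2 on chr12:26456548-26456587 (minus), Igtp on chr11:58199507-58199546 (plus), Gbp2 on chr3:142620589-142620628 (plus) and Gbp7 on chr3:142530268-142530307 (plus). All are written 5′ to 3′ on the gene's strand and lie upstream of the start.
Isg15: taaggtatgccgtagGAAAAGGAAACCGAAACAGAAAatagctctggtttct
Ifit1: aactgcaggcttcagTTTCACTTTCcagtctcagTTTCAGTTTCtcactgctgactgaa
Ifit3: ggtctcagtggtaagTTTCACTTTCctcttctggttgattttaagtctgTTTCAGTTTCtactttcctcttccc
Ifit3b: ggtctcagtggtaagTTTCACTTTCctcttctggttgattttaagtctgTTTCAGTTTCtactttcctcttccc
Rsad2: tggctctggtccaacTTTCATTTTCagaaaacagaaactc
Igtp: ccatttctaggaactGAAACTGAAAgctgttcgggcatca
Gbp2: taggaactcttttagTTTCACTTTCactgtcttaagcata
Gbp7: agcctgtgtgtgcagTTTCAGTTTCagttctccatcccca
Isg15 carries 3 overlapping matches, Ifit1 and Ifit3 carry 2 each, and the GTPases shown carry 1 each. The Ifit3 and Ifit3b stretches are identical in 74 of 74 bases. Of the GTPases with a window, 6 of 7 held the ISRE and 3 of 7 the GAS, while 3 of 4 IFIT windows held the ISRE and 1 of 4 the GAS. A match is a string of letters and was not tested as a bound site.

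Together the 50 members took a small part of the RNA in every class, and a larger part in MC38-Ova than in B16-Ova in each of the 4. In CD8 cells they made up 0.344% of RNA UMIs in B16-Ova and 0.662% in MC38-Ova. In Treg cells the shares were 0.685% and 1.37%, in CD4 cells 0.657% and 0.911%, and in innate-like cells 0.348% and 0.519%. Treg cells of MC38-Ova had the highest share and CD8 cells of B16-Ova the lowest, and the shares of the 2 tumours overlapped, since Treg and CD4 cells of B16-Ova stood about level with CD8 cells of MC38-Ova. A single gene, Ifi27l2a, which encodes a small membrane protein strongly induced by interferon, contributed 13.9% of the members' UMIs in innate-like cells of B16-Ova and 46.1% in Treg cells of MC38-Ova. Without it the shares were 0.273% and 0.442% in CD8 cells, 0.426% and 0.738% in Treg, 0.456% and 0.563% in CD4, and 0.2998% and 0.427% in innate-like cells. Of the 50 members, 35 reached their highest CPM in Treg cells of MC38-Ova, 10 in CD4 cells of MC38-Ova, 3 in innate-like and 1 in CD8 cells of MC38-Ova, and 1 in CD4 cells of B16-Ova.

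**Figure D1:**
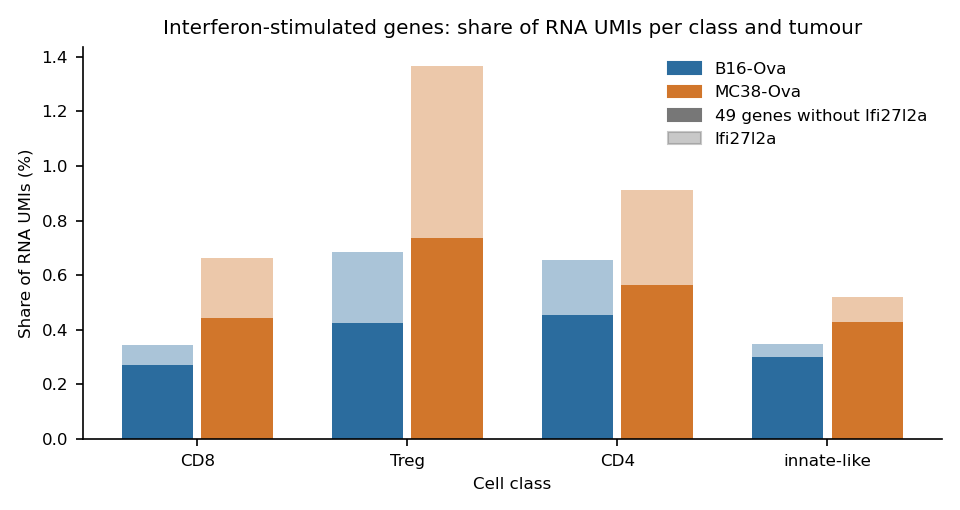
Share of RNA UMIs (percent) taken by the 50 interferon-stimulated genes in each class (x axis) and tumour, with Ifi27l2a drawn apart from the other 49 members. The MC38-Ova bar is the taller of the pair in each class, and Treg cells of MC38-Ova reach 1.37%.

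The first comparison asked how the members differed between T cells of the 2 tumours. With 1 pool per tumour it has no replicate check and no test. Ratios of CPM (MC38-Ova over B16-Ova) are given with exact 95% intervals, which cover counting error only, for members with at least 100 UMIs in the pair of sums. At least 1.5-fold higher in MC38-Ova were 32 of 48 members measured in CD8 cells, where 5.47% of 9758 genes were, 34 of 49 in Treg cells (4.95% of 7999 genes), 13 of 47 in CD4 cells (3.68% of 6774 genes) and 23 of 47 in innate-like cells (4.15% of 6575 genes). No member was 1.5-fold lower in MC38-Ova in any class, where 5.7%, 3.59%, 2.72% and 1.76% of genes were. Among cells with a hashtag 10 times the other, 1 member was, Gbp5 in CD8 cells, with a ratio of 0.665 (239 and 147 UMIs). The median member was higher by a log2 ratio of 0.84 in CD8, 0.88 in Treg, 0.30 in CD4 and 0.58 in innate-like cells, while the median of all genes was -0.00, -0.03, -0.02 and 0.00. Because a rarely counted member may pass the minimum of UMIs only through the tumour in which it is high, the same was counted over all 50 with no minimum: 34, 35, 15 and 25 were at least 1.5-fold higher, and 48, 50, 42 and 46 were higher at all. Across classes 40 members were higher in MC38-Ova in all 4, 13 were at least 1.5-fold higher in all 4, and 10 were lower in at least 1 class. The classes of a pool share its mice, capture and handling, so they do not repeat the tumour comparison. The share of members in RNA was also higher in MC38-Ova in each of 4 depth bins of each class, with ratios of 1.32 to 2.20. RNA of other cell types differed between the pools too. Summed stromal markers were higher in MC38-Ova in all 4 classes, at 15.2 and 31.4 CPM (B16-Ova, then MC38-Ova) in CD8, 24.7 and 170.3 in Treg, 42.7 and 65.3 in CD4 and 26.6 and 136 in innate-like cells. Macrophage markers stood at 59.97 and 68.4 CPM in CD8, 258 and 82.1 in Treg, 62.3 and 124 in CD4 and 61.3 and 196 in innate-like cells. Melanoma markers, given above, were higher in MC38-Ova in Treg cells and lower in the other 3 classes. Few Treg cells held 20 or more UMIs of a list: 0 and 1 for melanoma (B16-Ova, then MC38-Ova), 0 and 6 for stroma and 4 and 6 for macrophage markers. How much of the sums such cells carry was not tested. The part of these cell types in the members' ratios was not tested beyond leaving out cells with a macrophage marker UMI, after which 9 members in CD4 cells were at least 1.5-fold higher, and leaving out the 55 classed cells with at least 20 UMIs of melanoma, macrophage or stromal markers. Without those 55 cells the count in CD4 cells was 8 instead of 13.

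Summed, the genes of ISG15 conjugation differed by 2.00- to 2.51-fold in CD8, Treg and innate-like cells, while Usp18 reached 4.67-fold in Treg cells. Isg15, the ubiquitin-like protein attached to other proteins, stood at 170.0 and 388 CPM in CD8 cells of B16-Ova and MC38-Ova, 303 and 742 in Treg, 391 and 562 in CD4 and 165 and 328 in innate-like cells. It was higher in MC38-Ova in every class, by 1.44-fold (1.35 to 1.54) in CD4 and 2.45-fold (2.32 to 2.59) in Treg cells at the extremes. Usp18, which removes ISG15 and dampens signalling at the type I receptor, stood at 24.0 and 58.9 CPM in CD8, 21.4 and 99.9 in Treg, 37.2 and 54.3 in CD4 and 24.3 and 71.0 in innate-like cells. Its ratio in Treg cells was 4.67 (3.85 to 5.70), and 2.94 when each cell was thinned to 2000 RNA UMIs. Summed over the 3 genes of the group the ratios were 2.21 in CD8, 2.51 in Treg, 1.42 in CD4 and 2.00 in innate-like cells.

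The IFIT genes, whose proteins bind viral RNA and hold back its translation, and the oligoadenylate synthetase genes, whose products activate RNase L, had the largest group ratios in Treg, CD4 and innate-like cells. Ifit3, Ifit3b and Ifit1 lie together on chromosome 19 between 34583531 and 34650009 (GRCm38, plus strand). Ifit3 stood at 36.2 and 101 CPM in CD8 cells of B16-Ova and MC38-Ova, 37.9 and 107 in Treg, 71.7 and 135 in CD4 and 37.0 and 97.4 in innate-like cells. Ifit1 stood at 32.4 and 84.0, 48.9 and 141, 65.3 and 122, and 22.8 and 76.7 CPM in the same order. Both were higher in each MC38-Ova sum than in the B16-Ova sum of the same class, by 2.79-fold (2.55 to 3.06) for Ifit3 in CD8 cells and 3.37-fold (2.56 to 4.51) for Ifit1 in innate-like cells. Ifit3b was 4.87-fold higher (2.61 to 10.1) in innate-like cells, at 4.24 and 20.7 CPM, but on only 11 B16-Ova and 105 MC38-Ova UMIs. The 4 IFIT genes summed to ratios of 2.41, 2.61, 1.78 and 2.78 in CD8, Treg, CD4 and innate-like cells. Ifit3 and Ifit3b share 61.8% of Ifit3's 31-base words, so reads may have been divided between them in a way these counts cannot show.

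Among the oligoadenylate synthetase genes, Oas1a stood at 17.5 and 42.7 CPM in CD8, 44.0 and 109 in Treg, 33.9 and 54.5 in CD4 and 23.5 and 48.2 in innate-like cells, B16-Ova first. Oasl2 stood at 8.53 and 21.6, 10.8 and 45.3, 26.7 and 52.9, and 12.7 and 42.7 CPM. Both were higher in MC38-Ova in each class, and Oasl2 reached 4.19-fold (3.18 to 5.60) in Treg and 1.98-fold (1.55 to 2.54) in CD4 cells. Oas3 was 2.69-fold higher (2.28 to 3.18) in CD8 cells, at 11.03 and 29.7 CPM. Oasl1 was 6.65-fold higher (4.06 to 11.5) in Treg cells, at 3.13 and 20.8 CPM, on 18 and 144 UMIs. In innate-like cells it was 4.47-fold higher (2.70 to 7.88), at 6.56 and 29.3 CPM, on 17 and 149 UMIs. The last ratio fell to 2.30 when the hashtag had to exceed the other 10 times. The group's summed ratios were 2.56, 2.999, 1.76 and 2.51 in CD8, Treg, CD4 and innate-like cells. Oas2 was under 100 UMIs in each class, and 68.8% of Oas1a's 31-base words occur in other genes, mostly Oas1g.

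Ifi27l2a (chromosome 12, 103442167 to 103443680, minus strand) gave most of the sum of the other antiviral effectors. It stood at 708 and 2204 CPM in CD8 cells of B16-Ova and MC38-Ova, 2591 and 6302 in Treg, 2009 and 3483 in CD4 and 485 and 921 in innate-like cells. Bst2, the membrane protein tetherin that holds budding viruses at the cell surface, stood at 204 and 406, 279 and 715, 298 and 464, and 253 and 375 CPM. Both genes were higher in MC38-Ova in each class, by 3.11-fold (3.05 to 3.18) for Ifi27l2a in CD8 cells and 2.56-fold (2.42 to 2.71) for Bst2 in Treg cells. Rsad2, the antiviral enzyme viperin, was 2.26-fold higher (1.82 to 2.82) in CD4 cells, at 32.0 and 72.2 CPM, and 4.02-fold higher (2.82 to 5.89) in innate-like cells, at 13.5 and 54.3 CPM. Ifi44 had the widest ratio in Treg cells, 9.22 (4.83 to 19.8), but it rests on 10 B16-Ova and 111 MC38-Ova UMIs, and it was 4.98 in thinned cells. Isg20, an exonuclease that degrades RNA, stood at 66.1 and 106 CPM in CD8, 244 and 357 in Treg, 125 and 149.8 in CD4 and 45.1 and 75.8 in innate-like cells. The Treg sums of Isg20 stood above all others, and its ratios between tumours were 1.20 (1.06 to 1.36) in CD4 to 1.68 (1.36 to 2.08) in innate-like cells.

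The nucleic acid sensors differed less, with summed ratios of 1.49 in CD8, 1.61 in Treg, 1.09 in CD4 and 1.32 in innate-like cells. Zbp1, a sensor of Z-form nucleic acid, stood at 125 and 201 CPM in CD8 cells of B16-Ova and MC38-Ova, 186 and 329 in Treg, 199 and 229 in CD4 and 138 and 180.4 in innate-like cells. Ifi203, a member of the IFI200 family of DNA-binding proteins, stood at 181 and 230.2, 209 and 297, 276 and 289, and 182 and 244 CPM. Both were higher in MC38-Ova in each class, although the interval of Ifi203 in CD4 cells, 1.05 (0.960 to 1.14), included 1. Ifi204, a DNA sensor of the same family, had the widest ratios of the group, 4.40 (3.096 to 6.39) in CD8 cells on 38 and 203 UMIs and 2.93 (2.00 to 4.37) in CD4 cells on 36 and 122 UMIs. Its 31-base words occur in other genes, mostly Ifi211, for 46.0% of its transcript.

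The transcription factors of the response split in the same way. Irf7, which amplifies type I interferon production, stood at 66.8 and 149 CPM in CD8 cells of B16-Ova and MC38-Ova, 80.1 and 241 in Treg, 154 and 179 in CD4 and 106 and 205 in innate-like cells. Irf9, the DNA-binding part of ISGF3, stood at 46.7 and 67.5, 59.7 and 87.5, 82.2 and 78.4, and 50.9 and 54.3 CPM. Irf7 was higher in MC38-Ova in each class, by 3.01-fold (2.71 to 3.34) in Treg cells and 1.16-fold (1.04 to 1.30) in CD4 cells. Irf9 was higher in CD8 (1.44, 1.32 to 1.58) and Treg cells (1.47, 1.28 to 1.68), while its intervals in CD4 (0.954, 0.813 to 1.12) and innate-like cells (1.07, 0.864 to 1.32) included 1.

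The interferon-inducible GTPases were the group with the smallest ratio in each class. Summed over the 8 genes the ratios were 1.15 (1.13 to 1.18) in CD8, 1.23 (1.19 to 1.26) in Treg, 1.04 (1.00 to 1.09) in CD4 and 1.01 (0.958 to 1.06) in innate-like cells, and of all the GTPases and classes only Irgm1 in Treg cells reached 1.5-fold (2.04, 1.77 to 2.36). Ifi47, a GTPase of the immunity-related family, stood at 262 and 313 CPM in CD8 cells of B16-Ova and MC38-Ova, 361 and 458 in Treg, 341 and 338 in CD4 and 299 and 309 in innate-like cells. Igtp, of the same family, stood at 133 and 161, 385 and 454, 268 and 289.7, and 145 and 152 CPM. The tumours thus lay close together for both genes, and Igtp stood higher in Treg cells of either tumour than in any other sum. Gbp5, which helps assemble inflammasomes, was the member with the lowest ratio in CD8 cells, 0.797 (0.697 to 0.911), at 26.2 CPM in B16-Ova and 20.9 in MC38-Ova. The difference between the GTPases and the other groups was not tested, since each tumour is 1 pool.

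Among the remaining groups, the Schlafen genes, linked to T cell quiescence and the restriction of viruses, had summed ratios of 2.00, 1.97, 1.36 and 1.43 in CD8, Treg, CD4 and innate-like cells. Slfn1 stood at 61.8 and 123 CPM in CD8, 63.3 and 154 in Treg, 133 and 185 in CD4 and 62.5 and 88.3 in innate-like cells, B16-Ova first. Slfn5 stood at 17.8 and 39.8, 43.2 and 63.3, 71.1 and 85.8, and 23.9 and 48.99 CPM. Both Schlafen genes were lowest in CD8 cells of B16-Ova and highest in CD4 cells of MC38-Ova. The genes of the PARP9 complex and Parp14, which act in ADP-ribosylation, had ratios of 1.37, 1.36, 1.07 and 1.24. Of these, Dtx3l, the ubiquitin ligase partner of Parp9, stood at 53.1 and 82.1, 84.8 and 137, 84.4 and 97.4, and 61.3 and 80.1 CPM. Parp14 stood at 76.6 and 92.4, 119 and 134, 125 and 117, and 77.5 and 81.3 CPM. In CD4 cells Parp14 was no higher in MC38-Ova (0.934, 0.821 to 1.06). Of the 4 other members, Trim30a, a ubiquitin ligase gene of the TRIM family, stood at 69.1 and 135, 101 and 177, 113 and 147, and 70.6 and 114 CPM. Phf11b stood at 90.4 and 134, 138 and 217, 97.3 and 119.6, and 61.3 and 83.4 CPM. Both were higher in MC38-Ova in each class, with a summed group ratio of 1.76, 1.79, 1.32 and 1.51.

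**Figure D2:**
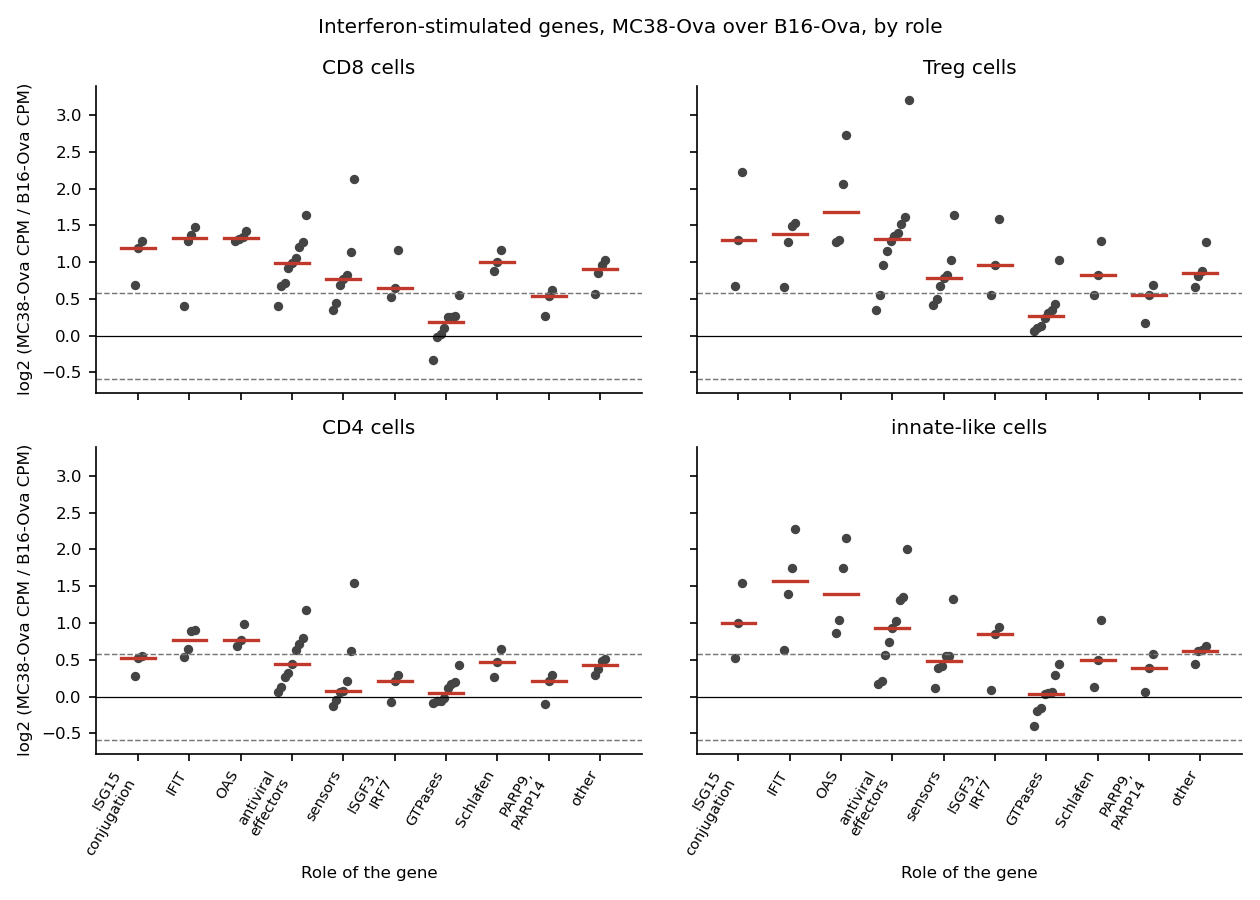
Log2 ratio of CPM, MC38-Ova over B16-Ova, for each member (points) by role group and class, for members with at least 100 UMIs in the pair of sums. The GTPases lie nearest 0 in each class, and no point lies below the line of a 1.5-fold lower level.

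Members with an ISRE in the window had a median log2 ratio of 0.83 in CD8 cells against 0.72 for those without, but 0.81 against 0.92 in Treg, 0.30 against 0.27 in CD4 and 0.56 against 0.61 in innate-like cells. The medians with and without an ISRE thus went both ways. The 8 members with a GAS had the lower median in all 4 classes, at 0.41 against 0.86 in CD8, 0.45 against 0.96 in Treg, 0.20 against 0.30 in CD4 and 0.37 against 0.59 in innate-like cells, and 3 of the 8 are GTPases. These medians are a description, with no test.

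Of 26 other genes of the interferon pathway on a fixed list, few differed by 1.5-fold between tumours. Ifng, the gene of interferon gamma, stood at 275 CPM in CD8 cells of B16-Ova and 742 in MC38-Ova, a ratio of 2.70, but at 101 and 64.5 CPM in Treg cells, a ratio of 0.640. Ifngr2, a chain of the interferon gamma receptor, had ratios of 0.602 in CD8 and 1.69 in Treg cells, on levels of only 3.25 to 14.7 CPM. In Treg cells Irf8 had a ratio of 0.601 and Socs3, an inhibitor of cytokine signalling, 1.68. The type I interferon genes Ifna1, Ifna2, Ifna4 and Ifnb1 had no UMI in any of the 8 sums, which allows up to 3 counts of each in a sum. They were looked up in these sums of classed cells alone. The 6195 hashtagged cells outside the classes were not searched for them, and cells that the sort left out were not profiled.

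The second comparison asked how the classes differed from each other. Each class was set against the mean of the other 3 with the pool as a block, in edgeR's quasi-likelihood test over 11188 genes with Benjamini-Hochberg adjustment. The 2 pools are the replicates, and the same 8 sums enter all 4 contrasts. With the pool as a block, p-values measure how far the class differences disagree between these 2 pools, with spread borrowed across genes. The pools are also the 2 tumours, so a class difference that depends on tumour counts as spread. All 50 members passed the filter on low counts. Treg cells had the most members called: 17 were higher, where 9.13% of all genes were, and 1 was lower (6.79% of genes). CD4 cells had 4 higher (1.72%) and 0 lower (0.715%). CD8 cells had 0 higher (4.5%) and 7 lower (4.22%), and innate-like cells 0 higher (7.63%) and 10 lower (7.68%). By DESeq2 no member was called higher in CD8 or innate-like cells either, nor lower in CD4 cells, and at an unadjusted p under 0.05 edgeR gave 0, 3 and 0 of 50, where 14.6%, 15.1% and 8.37% of all genes were. The members' median log2 differences were 0.29 in Treg, 0.28 in CD4, -0.29 in CD8 and -0.28 in innate-like cells, against all-gene medians of -0.01, 0.00, -0.00 and 0.01.

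In Treg cells the calls lay largely in the GTPases, of which 7 of 8 were higher, and in the PARP9 complex with Parp14 (3 of 3), while 0 of 4 IFIT genes were called. Isg20 was higher by 1.66 ± 0.09 on the log2 scale (SE, adjusted p = 3.9e-05), and both Treg sums stood above all others. Ifi27l2a was higher by 1.53 ± 0.13 (adjusted p = 0.0003), with all other sums but CD4 cells of MC38-Ova below both Treg sums. Gbp3, which stood at 98.2 and 103 CPM in Treg cells of B16-Ova and MC38-Ova and at 28.5 to 56.5 CPM elsewhere, was higher by 1.18 ± 0.09 (adjusted p = 0.00018). Igtp was higher by 1.11 ± 0.07 (adjusted p = 6.4e-05) and Oas1a by 0.95 ± 0.13 (adjusted p = 0.0022). Ifi208, of the IFI200 family, was the 1 member lower in Treg cells, by -0.69 ± 0.18 (adjusted p = 0.0365). It stood at 48.6 and 83.7 CPM there, 61.3 and 105 in CD8, 106 and 103 in CD4 and 106 and 115 in innate-like cells, so that the Treg sum of MC38-Ova lay above the CD8 sum of B16-Ova. Of Ifi208's 31-base words 42.1% occur in other genes, mostly Ifi213. Without the block 7 of 50 members were higher in Treg cells, where 6.02% of all genes were.

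In CD4 cells Ifi204 was higher by 1.71 ± 0.18 (adjusted p = 0.00505 by edgeR). It stood at 9.93 and 29.1 CPM in CD4 cells of B16-Ova and MC38-Ova, 2.21 and 9.70 in CD8, 3.65 and 11.4 in Treg and 1.93 and 7.08 in innate-like cells, so the class was highest within either tumour while the tumours overlapped. Slfn5 was higher by 1.01 ± 0.16 (adjusted p = 0.0238), Slfn1 by 0.78 ± 0.15 (adjusted p = 0.0457) and Ifi27l2a by 0.75 ± 0.14 (adjusted p = 0.0374). None of these 4 calls held without the block, or when the hashtag had to exceed the other 10 times.

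In CD8 cells the members called were all lower: Oasl2 by -0.95 ± 0.20 (adjusted p = 0.0293), Slfn5 by -0.87 ± 0.17 (adjusted p = 0.0241), Igtp by -0.74 ± 0.07 (adjusted p = 0.0018), Oas1a by -0.67 ± 0.13 (adjusted p = 0.0245) and Isg20 by -0.60 ± 0.10 (adjusted p = 0.0138). The others were the guanylate-binding proteins Gbp2 and Gbp4. In either tumour CD8 cells had the lowest level of the 4 classes for Oasl2, Oas1a and Slfn5, and for Igtp in B16-Ova alone. Without the block 1 of 50 members was called lower, near the 1.25% of all genes. Ifng itself was higher in CD8 cells by 2.04 ± 0.31 (adjusted p = 0.0104) and so was Irf8 (1.05 ± 0.16, adjusted p = 0.009), whereas Jak2 (-0.74), Ifngr1 (-0.59) and Tmem173, which encodes the DNA-sensing adaptor STING (-0.33), were lower.

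In innate-like cells Ifi27l2a was lower by -1.75 ± 0.16 (adjusted p = 0.000522), Isg20 by -1.25 ± 0.11 (adjusted p = 0.000473), Ifi204 by -0.99 ± 0.23 (adjusted p = 0.0241), Gbp3 by -0.84 ± 0.11 (adjusted p = 0.00196) and Phf11b by -0.75 ± 0.10 (adjusted p = 0.00227). Each of these was lowest in the innate-like sum within either tumour. Of Phf11b's 31-base words 62.9% occur in other genes, mostly Phf11a. Against 10 members called lower, 3 were called without the block (4.84% of all genes) and 4 when the hashtag had to exceed the other 10 times (2.48%). The call of Ifi204 rests on 5 and 36 UMIs and was lost in DESeq2 (adjusted p = 0.0854) and in 3 other settings. Of the pathway genes Socs3 (0.84), the DNA sensor gene Mb21d1 (0.70), Jak1 (0.58), Il10rb (0.55) and Ifnar2 (0.43) were higher in innate-like cells and Irf8 (-0.67) was lower. Treg cells had higher Tmem173 (0.60) and Tyk2 (0.45) and lower Ifng (-1.57) and Jak1 (-0.40). Jak2 was the 1 pathway gene called in CD4 cells (0.59). Of the 26 pathway genes 21 were tested, with 2 higher and 3 lower in CD8, 2 and 2 in Treg, 1 and 0 in CD4 and 5 and 1 in innate-like cells.

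**Figure D3:**
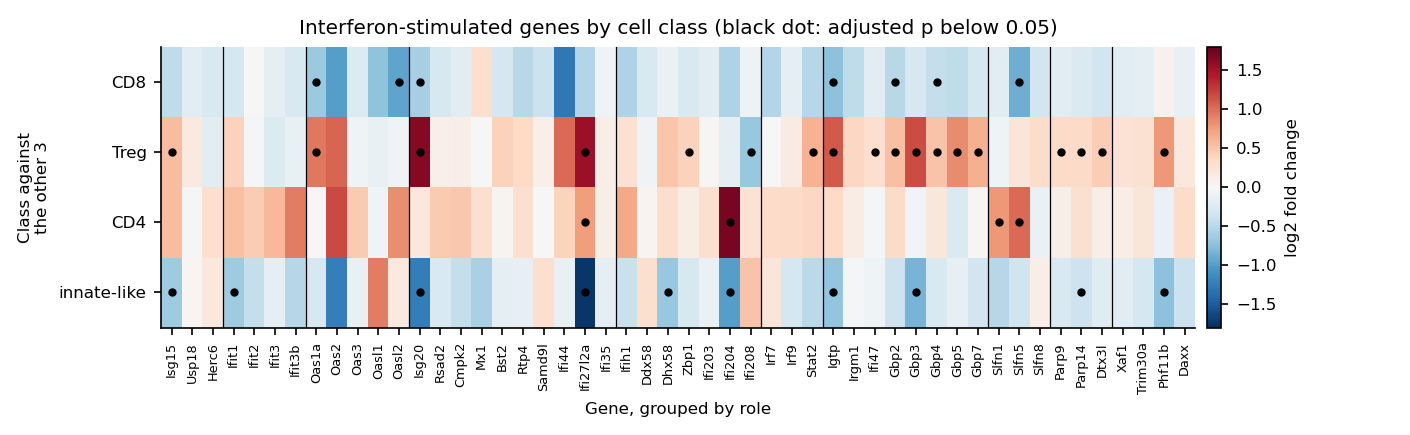
Heat map of the log2 difference of each member (columns, grouped by role) between a class (lines) and the mean of the other 3 classes, red for higher and blue for lower, with a black dot where the adjusted p was below 0.05. Dots lie on red in Treg and CD4 cells except for Ifi208, and on blue in CD8 and innate-like cells.

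Within a tumour the class medians were not equally steady. For B16-Ova and MC38-Ova in turn, the members' median in Treg cells was 0.16 and 0.50, and in CD4 cells 0.55 and 0.13. In CD8 cells it was -0.44 and -0.31 and in innate-like cells -0.33 and -0.41. The same sign in both tumours was found for 46 of 50 members in CD8, 44 in innate-like, 38 in Treg and 37 in CD4 cells. Treg and CD4 cells thus exchanged places between the tumours: CD4 cells had the higher median in B16-Ova and Treg cells in MC38-Ova, a difference with no replicate of either tumour.

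How the members were spread over single cells was read after thinning each cell to 2000 RNA UMIs, which left out 6 to 121 shallower cells per class and pool. Ifi27l2a was left out of this count. The median cell held 5 member UMIs in B16-Ova and 7 in MC38-Ova among CD8 cells, 7 and 12 among Treg, 7 and 8 among CD4, and 5 and 6 among innate-like cells. The cell at the 90th percentile held 12 and 19.8, 17 and 33, 19 and 22, and 12.2 and 19 UMIs. Both the middle and the upper end of the distribution therefore lay higher in MC38-Ova in every class. The 10% of cells with the most member UMIs held 29.4% to 35.3% of them. For the 12 genes of the ISG15, IFIT and OAS groups this share was 46.1% to 63.6%, and for the 8 GTPases 29.5% to 36.2%. The ISG15, IFIT and OAS genes were thus more concentrated in few cells than the GTPases in each of the 8 sums. The variance over the mean, which is 1 for pure counting error, was 3.21 to 9.05 for the former and 1.77 to 2.98 for the latter. The mean of the ISG15, IFIT and OAS genes was 0.896 and 1.87 UMIs in CD8 cells of B16-Ova and MC38-Ova, 1.17 and 3.004 in Treg, 1.63 and 2.29 in CD4 and 0.768 and 1.78 in innate-like cells. The mean of the GTPases was 1.84 and 1.90, 2.98 and 3.72, 2.36 and 2.36, and 1.79 and 1.83 UMIs. Fewer cells responding and less RNA per responding cell were not separated, and free RNA of the shared capture is counted in every cell. The 915 barcodes in which neither hashtag reached 150 UMIs had a member share of 0.501% and a median of 1593 RNA UMIs. They may hold cells, so their share is no measure of free RNA, whose level was not estimated.

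**Figure D4:**
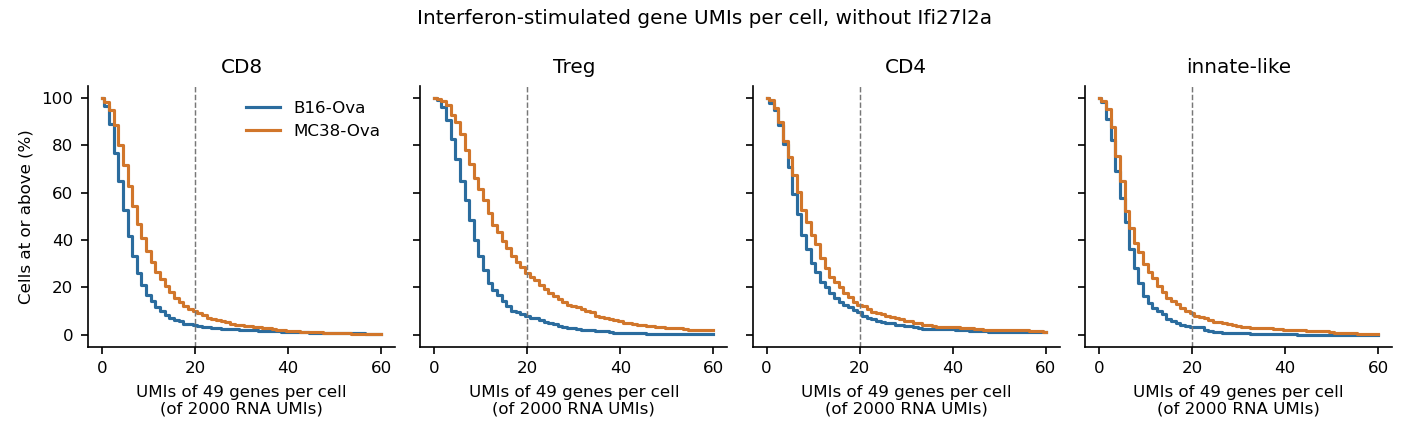
Percentage of cells (y axis) with at least a given number of UMIs of the 49 members other than Ifi27l2a (x axis), in cells thinned to 2000 RNA UMIs, by class and tumour. Over most of its length the MC38-Ova curve lies to the right of the B16-Ova curve, most widely in Treg cells, whose medians are 12 and 7 UMIs, and the CD8 curves meet at the far right.

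Across cells of a sum, each member was compared with the summed UMIs of the other members, with Ifi27l2a left out of that sum. Pearson correlations are given as a description over 449 to 2423 thinned cells, which share a library and a depth. Isg15, Ifit1 and Ifit3 were among the 5 members with the highest correlation in all 8 sums. The highest value in a sum was 0.52 to 0.68 and the median member's 0.19 to 0.34. The summed ISG15, IFIT and OAS genes correlated with the summed GTPases at 0.30 to 0.51, and Ifi27l2a correlated with the former at 0.20 to 0.34. Isg15 alone correlated with the other genes of the first set at 0.54 to 0.64.

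The third comparison asked whether the members differed with L-Pha, a plant lectin that binds branched N-glycans and was read through an anti-biotin tag. Cells in the top quartile of L-Pha UMIs were set against those in the bottom quartile within each pool, giving 4 sums per class and 1 residual degree of freedom with the pool as a block. In CD8 cells 0 of 50 members were called in either direction by edgeR, where 0.0195% of 10277 genes were called higher and 0% lower. At an unadjusted p under 0.05 there were 0 members higher and 18 of 50 lower, where 8.79% and 7.93% of all genes were, and DESeq2 called 0 higher and 1 lower. The members' median was -0.54, and it differed between the pools, at -0.87 in B16-Ova and -0.04 in MC38-Ova. Ifit3 stood at 14.2 CPM in L-Pha-high and 51.6 in L-Pha-low CD8 cells of B16-Ova and at 82.7 and 140.6 in MC38-Ova, a difference of -1.38 ± 0.31 (adjusted p = 0.135). Ifit1 stood at 14.4 and 36.8 CPM in B16-Ova and at 72.7 and 109.8 in MC38-Ova. For both genes the L-Pha-high sum was the lower within a tumour, while both MC38-Ova sums lay above both of B16-Ova. Isg15 stood at 123 and 208 CPM in B16-Ova but at 401 and 410.2 in MC38-Ova, so the high and low sums lay apart in B16-Ova and close together in MC38-Ova. These genes are examples, and other members went the other way. Isg20 stood at 63.3 CPM (L-Pha-high) and 62.2 (L-Pha-low) in B16-Ova and at 125 and 92.2 in MC38-Ova. Phf11b stood at 89.0 and 80.2 CPM in B16-Ova and at 138 and 131 in MC38-Ova. Of the 50 members, 4 were higher in L-Pha-high cells of B16-Ova and 19 in those of MC38-Ova.

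RNA depth moved with the lectin and with the other surface tags. L-Pha-high and L-Pha-low CD8 cells had a median of 13931 and 5391 RNA UMIs in B16-Ova and 10617.5 and 4916.5 in MC38-Ova. When the quartiles were taken within deciles of RNA UMIs, the members' median in CD8 cells was 0.15. The members' share of RNA in CD8 cells of B16-Ova was then 0.347% in L-Pha-high and 0.326% in L-Pha-low cells, the opposite order to the 0.268% and 0.441% without this matching, and in MC38-Ova it was 0.786% and 0.572%, against 0.674% and 0.682%. The part of depth in the L-Pha differences was not tested beyond this. In CD8 cells of B16-Ova thinned to one depth, the mean of the 49 members without Ifi27l2a was 7.47 UMIs in the lowest and 4.63 in the highest quartile of L-Pha. Surface PD-1 gave 8.22 and 4.56 and surface Tim-3 gave 7.78 and 5.67 UMIs. In CD8 cells of MC38-Ova the lowest and highest quartiles of L-Pha had 9.73 and 9.88 UMIs, those of PD-1 9.35 and 9.72, and those of Tim-3 9.88 and 8.94. A lower mean at the top of each of the 3 tags was thus seen in the B16-Ova pool, and in MC38-Ova for Tim-3 alone. These quartiles were not matched for RNA depth before thinning, and the PD-1 quartiles had a median of 6129 (lowest) and 12571 (highest) RNA UMIs in B16-Ova and 6082 and 9090.5 in MC38-Ova. Tim-3 gave 6374 and 11009 RNA UMIs in B16-Ova, with 6065 and 9294 in the other pool.

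In Treg cells 49 of 50 members were tested, of which 1 was called higher in L-Pha-high cells (1.07% of 8654 genes) and 0 lower (1.06%). At an unadjusted p under 0.05 edgeR gave 5 higher and 3 lower of 49 (10.2% and 6.12%), near or below the 9.81% and 9.29% of all genes, and DESeq2 called 1 and 0. The member called was Isg20, with 279 CPM (L-Pha-high) and 149 CPM (L-Pha-low) for B16-Ova and 388 and 212 CPM for MC38-Ova. The L-Pha-high sums were above both L-Pha-low sums, with a difference of 0.89 ± 0.12 (adjusted p = 0.0232). Within deciles of RNA UMIs it was 0.80 (adjusted p = 0.0552), and the call was also lost without the block. The members' median was -0.03 over both pools, -0.27 in B16-Ova and 0.21 in MC38-Ova. Of the pathway genes Ifng (-1.28 ± 0.18, adjusted p = 0.0267) and Socs3 (-0.97 ± 0.17, adjusted p = 0.046) were lower in L-Pha-high Treg cells. In thinned Treg cells of MC38-Ova the mean of the 49 members was 12.4 UMIs in the lowest and 17.7 in the highest L-Pha quartile, and for B16-Ova 8.90 and 8.11.

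**Figure D5:**
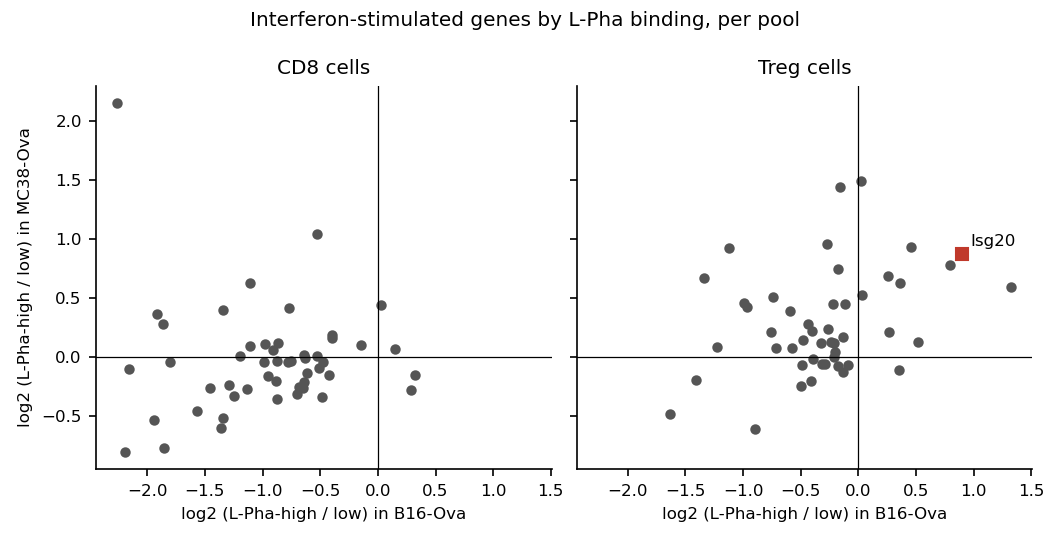
Log2 difference between L-Pha-high and L-Pha-low cells for each member, B16-Ova on the x axis and MC38-Ova on the y axis, in CD8 and Treg cells. In CD8 cells most points lie left of 0 and near 0 on the y axis, with medians of -0.87 and -0.04.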

How the data were processed

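The authors deposited raw UMI counts per gene and per tag for 19912 barcodes. Per the submitters' processing notes these were made with Cell Ranger 3.1.0 on the mm10 genome, with R 3.6.1 and Seurat 3.1.0 also named, while the table's own header records software version 3.0.2. The gene annotation behind the counts is not given in the sources used here, and T cell receptor reads were not analysed here. A pathway gene and a planned choice of cells are not reported here. The labels' growth protocol names MC38-OVA alone, whereas the design text names both tumours and their hashtags. The members and gene lists were chosen with earlier results of these data known.

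Cells had at least 500 genes, at most 10% mitochondrial UMIs and a hashtag of at least 150 UMIs and 3 times the other, which drops doublets across pools. No doublet caller was run. UMIs were summed per class and pool. Classes, and L-Pha quartiles within a pool, were tested with edgeR 4.0.16 (R 4.3.3, TMM scaling, filterByExpr, quasi-likelihood F-test, pool as a block, Benjamini-Hochberg over all genes tested, 0.05). The same fit was also run on simulated counts, whose outcome is not given here. DESeq2 1.42.0 was an alternative. The block pairs sums because cells of a class and its comparators come from the same hashtag pool. The block left 3 residual degrees of freedom for classes and 1 for L-Pha, so the spread is largely borrowed across genes. The rest of it is the disagreement between pools in these differences, which may be technical. Tumour ratios are CPM of summed UMIs with exact conditional 95% intervals. In Python 3.11.15, cells were thinned to 2000 RNA UMIs for per-cell values. Promoter windows are RefSeq's, and gene coordinates are those of GENCODE on GRCm38. No window was found for Dhx58, Gbp4, Ifi204, Ifi27l2a, Mx1, Oas2, Parp14, Parp9, Rtp4, Usp18 and Zbp1.

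Genes named are the 2 members of each role with the highest mean CPM, up to 5 called members per direction with the largest fold change in each tested comparison, up to 4 members per direction with the widest tumour ratio whose interval excluded 1, and pathway genes called or 1.5-fold different. Isg20's and Irgm1's tumour values, Gbp2, Gbp4 and the tag quartiles were named after their values were seen. So were the L-Pha levels of Isg20 and Phf11b in CD8 cells. No stated rule picked Ifit3, Ifit1 and Isg15 for L-Pha levels in CD8 cells. Alternatives changed the tool, scaling, filter, block, depth, hashtag threshold, L-Pha grouping and the cells kept.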

Additional observations from a re-analysis of the deposited data

Results flagged for a closer look

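In Treg cells the members' median difference between L-Pha-high and L-Pha-low cells pointed in opposite directions in the pools, at -0.27 on the log2 scale for B16-Ova and 0.21 for MC38-Ova. The difference between the pools was not tested. Some pathway genes that are no members also pointed in opposite directions between tumours in different classes, again without a test. The ratio of Ifng, MC38-Ova over B16-Ova, was 2.70 in CD8 cells but 0.640 in Treg and 0.785 in CD4 cells. For Ifngr2 it was 0.602 in CD8 and 1.69 in Treg cells. For Irf8 it was 0.772 in CD8, 0.601 in Treg and 1.23 in innate-like cells, and for Socs3 1.68 in Treg and 0.856 in CD4 cells. Hashtagged cells that no class rule took up, 2808 of B16-Ova and 3387 of MC38-Ova, were used in no comparison. The members made up 0.507% of their RNA UMIs in B16-Ova and 0.879% in MC38-Ova.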

How the results depend on the processing

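With 1 pool per tumour, the tumour ratios have no replicate check, and leaving out a pool leaves 1 value per class and no test. The members' median in the remaining pool was -0.44 and -0.31 in CD8, 0.16 and 0.50 in Treg, 0.55 and 0.13 in CD4 and -0.33 and -0.41 in innate-like cells (B16-Ova, then MC38-Ova), and for L-Pha -0.87 and -0.04 in CD8 and -0.27 and 0.21 in Treg cells. Depth limits Oas2, Ifi44 and Ifi204 most. No value changed its sign in any setting where it had been called, and the causes of the changes below were not tested unless fewer samples, genes or cells are named. Analyses without the deepest 10% of cells in the class comparisons, without cells with 20 or more UMIs of other cell types, and without Ifi27l2a were chosen after seeing the data.

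Without the replicate block, that is with the pairing of sums by pool ignored, 1 member was called lower in CD8 cells, 7 higher and 0 lower in Treg, 0 higher in CD4, 3 lower in innate-like and 0 higher in L-Pha-high Treg cells. Scaling by library size alone, which moves the median of all genes to -0.08 in CD8 and innate-like and 0.08 in Treg and CD4 cells and to 0.12 for L-Pha in CD8 cells, gave 12 lower in CD8, 0 lower in Treg, 8 higher in CD4, 17 lower in innate-like and 9 lower in L-Pha-high CD8 cells. Without the filter on low counts 13 were lower in CD8, 11 higher in CD4, 2 higher in innate-like, 14 lower in L-Pha-high CD8, and 4 higher and 3 lower in L-Pha-high Treg cells. DESeq2 called 9 higher in CD4 and 1 lower in L-Pha-high CD8 cells. Thinned cells gave 1 of 48 higher in CD8 (7.18% of all genes), 7 in CD4 (3.36%) and 3 in innate-like cells (8.09%). With a hashtag 10 times the other, 0 were lower in Treg, 0 higher in CD4 and 4 lower in innate-like cells. Without the deepest 10% of cells, 1 was higher in CD8 (8.63% of all genes), and 2 higher and 21 lower in innate-like cells (12.5% and 12.6%). L-Pha terciles gave 2 lower (2.92% of all genes) and quartiles within RNA deciles 0 higher (0.535%) in Treg cells. The share of all genes called moved too: over these settings it was 1.25% to 7.25% lower in CD8, 5.47% to 15.1% higher in Treg, 0.3% to 4.13% higher in CD4, 2.48% to 12.6% lower in innate-like, 0% to 2.35% lower in L-Pha-high CD8 and 0% to 4.63% higher in L-Pha-high Treg cells. It was also 1.28% to 8.63% higher in CD8, 3.74% to 12.2% lower in Treg and 2.88% to 12.5% higher in innate-like cells. For L-Pha-high Treg cells it was 0% to 2.92% lower.

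The tumour ratio of the members' summed CPM was 1.93 in CD8, 2.00 in Treg, 1.39 in CD4 and 1.49 in innate-like cells. As a mean of per-cell CPM it was 1.72 in CD8, 1.96 in Treg and 1.41 in innate-like cells. Thinned, it was 1.76 in CD8 and 1.45 in innate-like cells, with 22 of 46 members measured at least 1.5-fold higher in CD8, 5 of 37 in CD4 and 12 of 33 in innate-like cells, against 32 of 48, 13 of 47 and 23 of 47. With a hashtag 10 times the other it was 1.35 in CD4 and 1.42 in innate-like cells, with 10 of 30 members in the latter. Without the deepest 10% it was 1.75 in CD8, 2.06 in Treg, 1.41 in CD4 and 1.45 in innate-like cells, with 8 members in CD4 cells. Without cells with a macrophage marker UMI it was 1.95, 2.03, 1.31 and 1.44. Without cells with 20 or more UMIs of other cell types it was 2.08 in Treg and 1.42 in innate-like cells, with 8 members in CD4 cells. Without Ifi27l2a it was 1.62, 1.73, 1.23 and 1.425. Of the other values and settings for these comparisons, 96 were counted as staying on their side of the threshold or within set bounds. Those bounds are not given here. Of the values of named genes and the members' medians, 252 were entered as unchanged. The members' medians in a single pool were among them and were entered so without any check. The rest were counted in the same way. Another 29 kept their direction without passing the threshold and 15 moved beyond those bounds. The 252 do not show that the members' medians held in a single pool. For L-Pha in Treg cells the median was -0.03 over both pools, but -0.27 in B16-Ova and 0.21 in MC38-Ova.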
